A study of Bos taurus with 6 samples.

Results

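The genes described here are those of cattle chromosomes 12 and 28, whose RNA was lower as a body in mammary epithelial cells with a disrupted KLF6 gene than in wild-type cells. The members are the rows of these chromosomes that the count table marks as protein-coding and that held at least 60 reads over the 6 libraries. KLF5, BRCA2, DDIT4, EGR2, PLAU and the ribosomal protein genes RPL21 and RPS24 were left out. This gave 370 members, 208 on chromosome 12 and 162 on chromosome 28, of 12153 genes that pass the same row rule over all chromosomes and 28200 rows in the table. Both chromosomes were chosen because their ratio of knockout over wild type was low, so that ratio is given below as a description, with no test of the shift.

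RNA was sequenced from Holstein mammary epithelial cells in primary culture, the cell type that makes and secretes milk in the gland. There were 3 libraries from cells in which KLF6, a zinc-finger transcription factor, was knocked out with CRISPR/Cas9, and 3 libraries from wild-type cells of the same kind. No further treatment, time point or animal age is named in the labels, and they do not say whether the knockout cells were 1 clone or a pool, or whether each library had a culture of its own. What the p-values measure is thus the spread among 3 libraries a genotype, and that spread may be technical.

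Genes on a chromosome share its copy number and are handed on together at cell division, and long stretches of a chromosome also share chromatin domains. Each gene still has its own promoter and its own regulators, so single genes can depart widely from their neighbours. Neither copy number nor chromatin was measured in these libraries. In bulk RNA, fewer cells of a type and less RNA per cell cannot be told apart.

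Total counts ranged from 17512892 to 18724879 per library. KLF6 itself stood at 224, 230 and 217 CPM (counts per 1000000 of the scaled library) in the knockout libraries and at 503, 496 and 558 CPM in wild type, a log2 fold change of -1.21 ± 0.05 (SE, edgeR). The labels do not place the edit within the gene, so these reads do not check it directly. All 5 luminal and 3 basal markers looked for had reads. The summed level of 5 luminal markers was 10780 to 12115 CPM in wild-type and 3909 to 4066 CPM in knockout libraries, and that of 3 basal markers 6793 to 6929 and 3760 to 3809 CPM. Single markers did not all follow their sum: EPCAM (165 and 167 CPM in wild type and knockout) and CDH1 (306 and 290 CPM) were close between genotypes, and KRT14 was higher in knockout (304 and 515 CPM). CSN2, CSN3 and LALBA, which encode milk proteins, had 0 reads in every library, and CSN1S1 had 3 reads in all. Leukocyte markers summed to 3.78 to 4.64 CPM in wild type and 3.07 to 3.59 CPM in knockout, with PTPRC at 0. Endothelial markers summed to 0.169 to 0.492 CPM and 0 to 0.109 CPM, with KDR at 0, and 3 fibroblast markers to 25.2 to 27.4 CPM in wild type and 9.93 to 11.7 CPM in knockout. The luminal, basal, leukocyte, endothelial and fibroblast sums were thus all lower in the knockout libraries, with no overlap, as most members were. Some of these sums rest on 1 gene or few reads. CD68 had 399 reads and CD3E 5, and CDH5 had 19 and TIE1 3. CD3E (0.037 and 0.055 CPM in wild type and knockout) and PDGFRB (0 and 0.113 CPM, 6 reads in all) went the other way. The part of these sums in the members' values was not tested. Wild-type replicate 3 stood apart from its group, since its variance relative to counting error alone was 8.93 against replicate 1 and 8.87 against replicate 2, where other pairs of a genotype gave 2.25 to 2.77.

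The median member of chromosome 12 had a log2 ratio of knockout over wild type of -0.43, which is 74.2% of its wild-type level. On chromosome 28 the median was -0.57, or 67.1% of the wild-type level. Over the other autosomes the median of genes chosen by the same row rule was 0.00, and over all genes tested it was -0.01. The range from the lower to the upper quartile ran from -0.78 to -0.01 on chromosome 12 and from -1.16 to -0.13 on chromosome 28. Members near the upper quartile were thus close to their wild-type level, so the ratio was not the same for all members.

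Each knockout library showed the shift. Taken over the mean of the wild-type libraries, the chromosome 12 medians were -0.43, -0.41 and -0.43 in knockout replicates 1, 2 and 3. Wild-type replicates 1, 2 and 3, each taken over the mean of the other libraries of its group, had chromosome 12 medians of -0.01, 0.02 and -0.02. For chromosome 28 the medians were -0.56, -0.57 and -0.63 in the knockout libraries and 0.00, -0.01 and -0.01 in wild type. The genotypes did not overlap on either chromosome. Among all chromosomes, the farthest that any wild-type library's median lay from 0 was 0.05. Without wild-type replicate 3 the medians were -0.41 and -0.53.

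**Figure D1:**
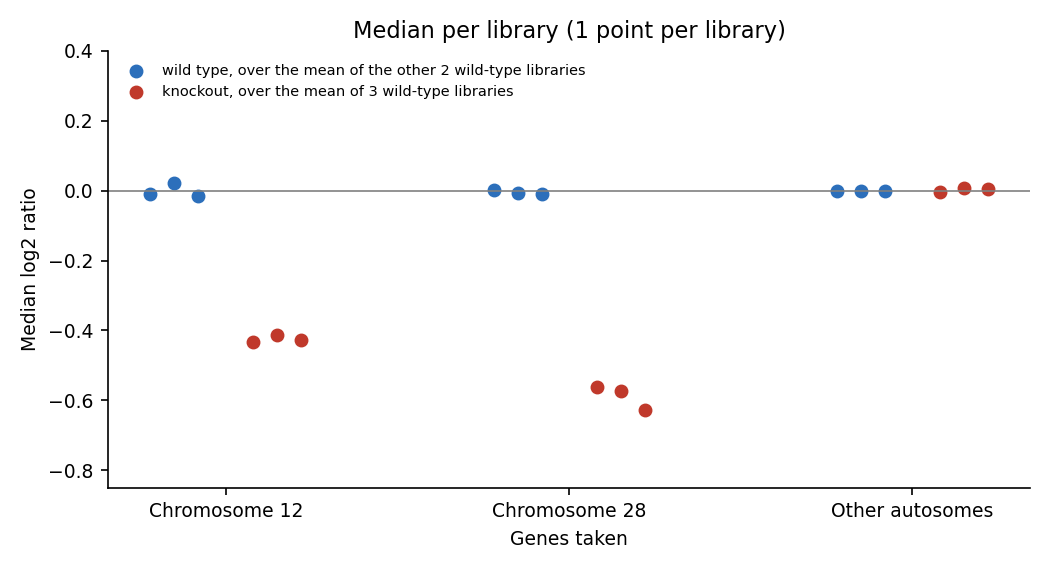
Median log2 ratio of the members of chromosome 12, the members of chromosome 28 and genes of the other autosomes, with 1 point for each library. Knockout points sit between -0.43 and -0.41 for chromosome 12 and between -0.63 and -0.56 for chromosome 28, while all wild-type points, and the knockout points of the other autosomes, lie near 0.

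Set among 30 chromosomes, chromosome 28 had the second lowest median and chromosome 12 the third lowest. Chromosome 14 was lower, at -0.84, and chromosome 3 came next after chromosome 12, at -0.40. The knockout library medians of chromosome 3 (-0.42, -0.40 and -0.40) overlapped those of chromosome 12, so the order of these neighbours was not larger than the spread between libraries. The library medians of chromosomes 28 and 14 overlapped with neither of these nor with each other. Of the 28 other chromosomes, 21 had a median within 0.25 of 0, and the highest was that of chromosome 20, at 0.48. The distance between the quartiles was 0.77 on chromosome 12, just under the 0.79 to 1.04 of the other chromosomes, and 1.04 on chromosome 28, at the top of that range.

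**Figure D2:**
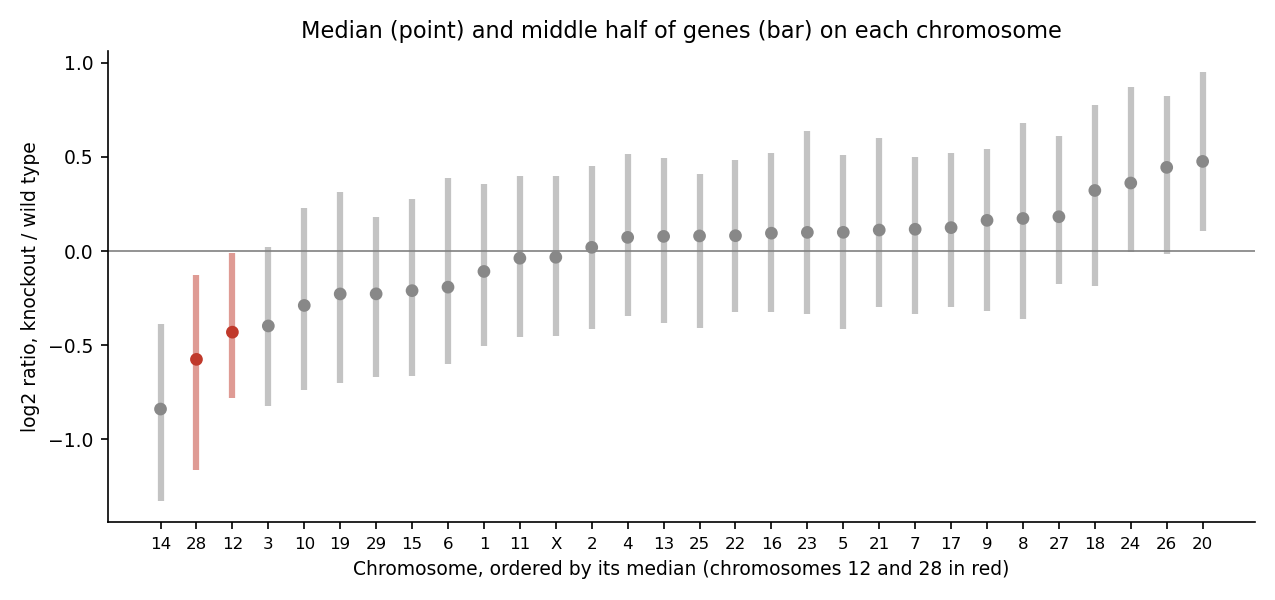
Median log2 ratio (point) and the range between the quartiles (bar) for each of 30 chromosomes under the same row rule, in order of the median. Chromosome 28 (-0.57) and chromosome 12 (-0.43), in red, come after chromosome 14 (-0.84) and just below chromosome 3 (-0.40).

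By count, 284 of the 370 members (76.8%) had a ratio below 0, where 49.9% of genes on the other chromosomes did. The quasi-likelihood test of edgeR, adjusted by Benjamini-Hochberg over all genes tested, called 123 members of chromosome 12 lower and 26 higher, and 111 members of chromosome 28 lower and 27 higher. Over all 13390 genes tested, 37.6% were called lower and 37.1% higher. A fall of at least 2-fold was called for 29 members of chromosome 12 and 48 of chromosome 28, and a rise of at least 2-fold for 8 and 7. Over all genes tested, 11.5% had such a fall and 10.8% such a rise. All 3 knockout libraries lay below all 3 wild-type libraries for 244 members and above them for 55, and the shares on the other chromosomes were 38.4% and 39.1%. Since this same contrast picked the chromosomes, these counts only restate how they were chosen. A single member, the ubiquitin ligase adaptor gene KBTBD7, was too low to be tested, at 28 reads in knockout and 40 in wild type.

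Reads of the members made up 1.18% ± 0.02 (SD, n = 3) of a wild-type library for chromosome 12 and 1.14% ± 0.02 for chromosome 28. In the knockout libraries these shares were 0.790% ± 0.009 and 0.745% ± 0.002. The most abundant members carry much of these sums. TPT1, which encodes the translationally controlled tumour protein, stood at 1209, 1189 and 1298 CPM in knockout and 2691, 2724 and 2568 CPM in wild type. ANXA8L1, a member of the annexin family of calcium-dependent membrane-binding proteins, stood at 1194, 1156 and 1190 CPM against 2209, 2135 and 2124 CPM. PSAP, the precursor of the saposins that help lysosomal enzymes degrade sphingolipids, stood at 1472, 1438 and 1442 CPM against 1572, 1563 and 1727 CPM. HNRNPF, a splicing regulator that binds G-rich RNA, was next on chromosome 28, at 213, 216 and 221 CPM against 373, 365 and 380 CPM (-0.78 ± 0.04). TPT1 and ANXA8L1 fell by more than the median of their chromosome (log2 fold changes -1.11 ± 0.04 and -0.87 ± 0.04), and PSAP by much less (-0.16 ± 0.04). LCP1, which encodes the actin-bundling protein L-plastin, was among the 3 most abundant members of chromosome 12 and rose slightly (0.20 ± 0.04), from 337 ± 4.97 to 388 ± 5.29 CPM. TPT1, ANXA8L1 and HMGB1 belong to genes with near-identical copies or pseudogenes, with which they may share reads in the authors' counting.

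Followed along the chromosomes, the median ratio was below 0 in every window of 10 Mb, though not in every shorter stretch. Positions here are those of the count table, and for its genome build nothing is stated in the labels or headers. Members of chromosome 12 span 86.3 Mb, from 783000 to 87097222, and those of chromosome 28 span 44.6 Mb, from 1197453 to 45814853. In windows of 10 Mb, all 9 window medians of chromosome 12 and all 5 of chromosome 28 were below 0. On chromosome 12 the windows with at least 20 members had medians of -0.49 (10 to 20 Mb, 52 members), -0.38 (20 to 30 Mb, 34 members), -0.33 (30 to 40 Mb, 43 members), -0.65 (70 to 80 Mb, 21 members) and -0.33 (80 to 90 Mb, 29 members). The other 4 windows held only 4 to 15 members each, with medians between -0.74 and -0.17. Medians over so few members are poorly fixed. Between 60 and 70 Mb, with 4 members, the knockout libraries gave -0.18, -0.26 and -0.10 and wild-type replicate 1 gave -0.25. The genotypes thus overlapped in that window.

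Chromosome 28 was less even. Its first 10 Mb had a median of -0.31 (40 members), and the windows that follow had -0.64 (16 members), -0.70 (60 members), -0.71 (22 members) and -0.50 (24 members). In the first 10 Mb the 3 knockout libraries gave -0.23, -0.29 and -0.31. Between 20 and 30 Mb they gave -0.66, -0.66 and -0.71. The difference between these stretches therefore appeared in each knockout library, but the windows were compared after their values were seen.

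A running median over 21 neighbouring members was below 0 at all 188 positions of chromosome 12 and all 142 positions of chromosome 28. It ranged from -0.77 to -0.08 on chromosome 12, highest around LAMP1 near the far end. The running median does not reach the 10 members at each end. Over 11 neighbouring members it was below 0 at 194 of 198 positions of chromosome 12, and its highest value there was 0.04, around TFDP1, also near the far end. On chromosome 28 the running median over 21 members ranged from -0.97, around EIF4EBP2, to -0.17, around COA6. EIF4EBP2 encodes an inhibitor of translation initiation and COA6 an assembly factor of cytochrome c oxidase. The longest unbroken run of members below 0 was 13 on chromosome 12, from RAP2A to TMTC4, and 26 on chromosome 28, from ANXA7 to TMEM254 over 5.85 Mb. Ratios of adjacent members had a Pearson correlation of -0.06 over 207 pairs on chromosome 12 and 0.20 over 161 pairs on chromosome 28. Outlying neighbours, such as GAS6 and RASA3 or MAT1A and the unnamed locus beside it, can weigh heavily in this measure. It therefore says little about typical neighbours. All adjacent pairs share their libraries, and some share overlapping reads.

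**Figure D3:**
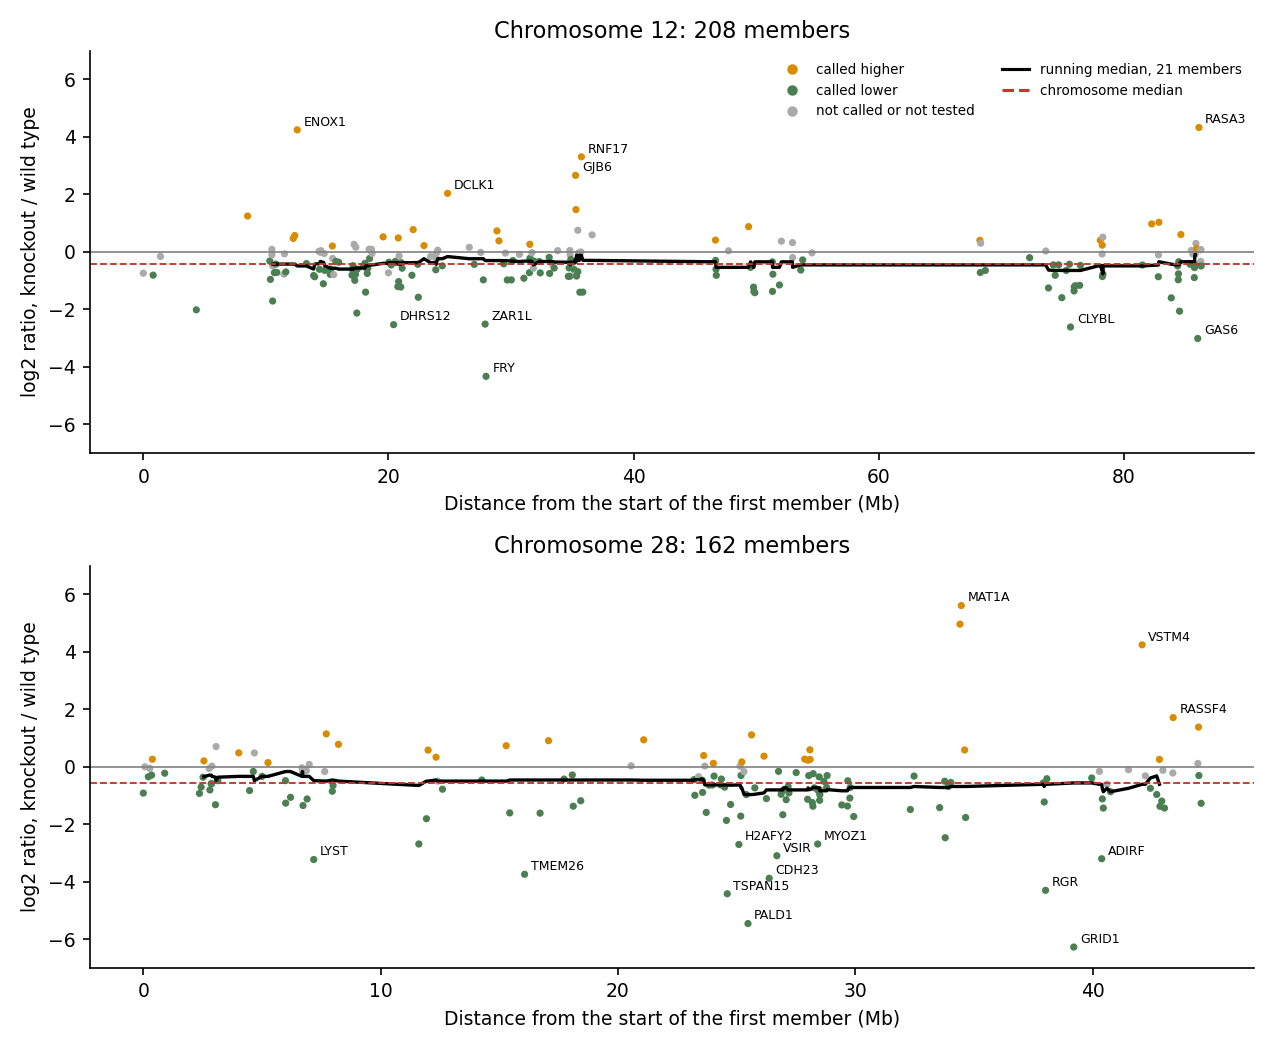
Log2 ratio of knockout over wild type for each member against its distance from the start of the first member, in Mb. The black line (running median of 21 members) stays below 0 along both chromosomes, between -0.77 and -0.08 on chromosome 12 and between -0.97 and -0.17 on chromosome 28, and labelled members (those with a symbol) are 2 or more from the chromosome median, drawn as a dashed red line. Orange points were called higher, green points lower and grey points neither.

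The shift was seen at low and at high expression and on both strands. Split into 3 classes of mean CPM that hold equal numbers of genes of the other chromosomes, chromosome 12 had medians of -0.36, -0.44 and -0.46 from the lowest to the highest class, and chromosome 28 had -0.60, -0.50 and -0.64. Genes of the other chromosomes had -0.05, -0.03 and 0.08. Plus-strand members had medians of -0.36 and -0.57 on chromosomes 12 and 28, and minus-strand members -0.49 and -0.57. Gene length as deposited was at most 15191 bases on chromosome 12 and 12195 on chromosome 28. It is not the span from start to end, which is far longer for genes such as FRY and GRID1. By this length, split in the same way, the shortest class (up to 1920 bases) had medians of -0.10 on chromosome 12 and -0.32 on chromosome 28. The middle class had -0.49 and -0.78, and the longest class (over 3191 bases) had -0.58 and -0.65, so chromosome 28 was lowest in the middle class. On the other chromosomes the classes had 0.11, 0.02 and -0.12 in this order. Rows of other biotypes, which the row rule did not use, had medians of -0.14 over 17 rows of chromosome 12 and -0.58 over 11 rows of chromosome 28, against 0.01 over 979 such rows elsewhere.

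Against this level, a few members stood far out. A member was counted as an outlier when its log2 ratio differed by 2 or more, that is 4-fold, from the median of its own chromosome. Chromosome 12 had 5 such members above (2.40%) and 5 below (2.40%), and chromosome 28 had 4 above (2.47%) and 12 below (7.41%). On the other chromosomes 3.56% of genes lay that far above and 2.92% that far below. The share was near or under this background in all cases but the low outliers of chromosome 28. The 26 outliers were picked by the ratio itself, so their fold changes and the gaps between genotypes are given as a description, and some of them reached 60 reads only through the genotype in which they are high. Without wild-type replicate 2 the low outliers of chromosome 12 numbered 3.

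**Figure D4:**
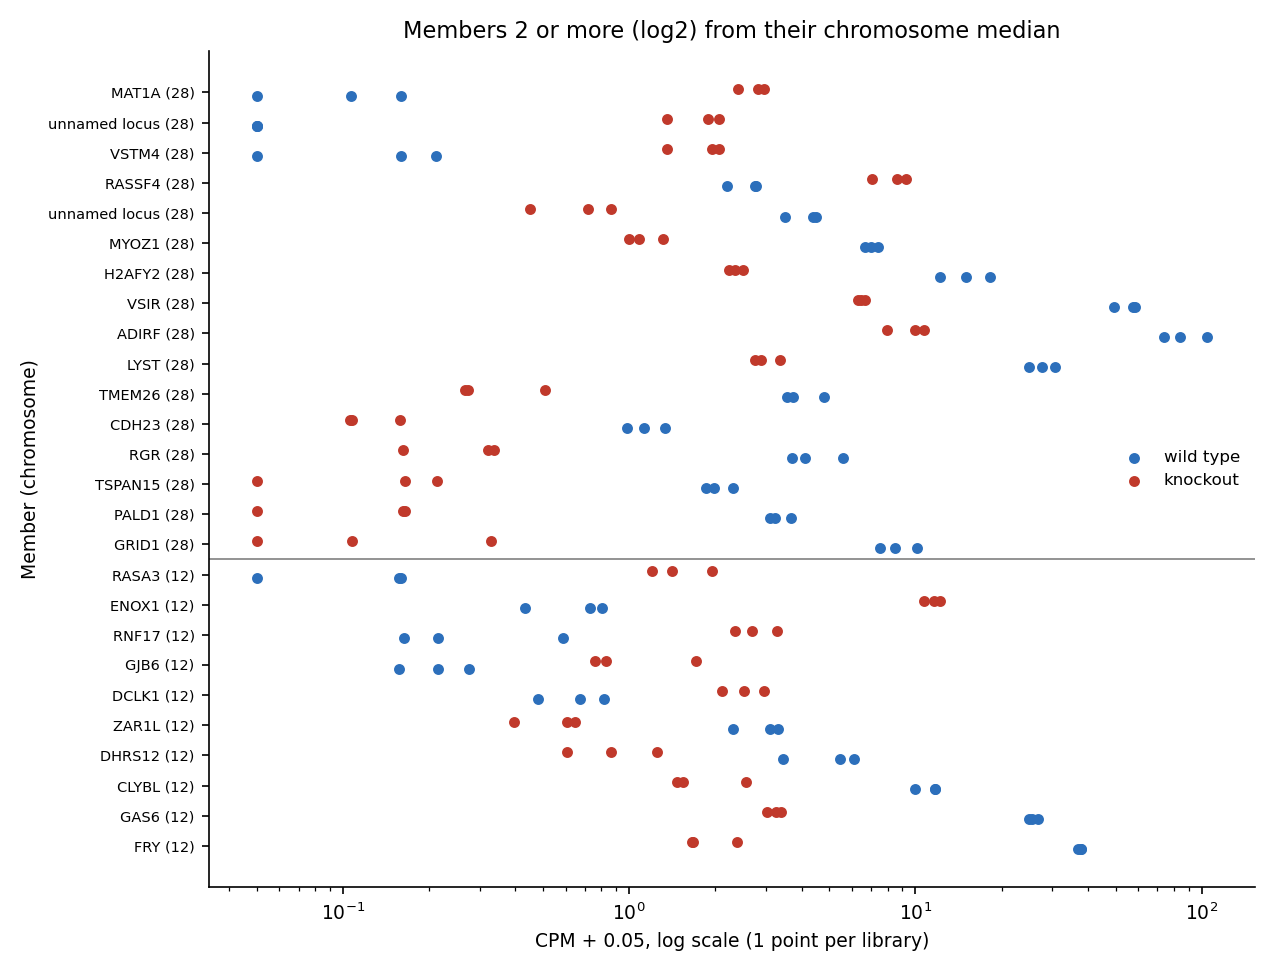
CPM + 0.05 on a log scale for the 26 outlying members in every library, grouped by chromosome and ordered by distance from the chromosome median. In each member the knockout points (red) and wild-type points (blue) are apart, from GRID1, at 7.49 to 10.1 CPM in wild type and at most 0.279 in knockout, to MAT1A, at 2.35 to 2.90 CPM in knockout and at most 0.109 in wild type.

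Of the low outliers on chromosome 12, FRY was the farthest. FRY (ENSBTAG00000006771, 28747721 to 28997274), a large scaffold protein of the NDR kinases that binds microtubules, stood at 1.61, 2.34 and 1.62 CPM in knockout and 37.0, 37.7 and 37.8 CPM in wild type. Its log2 fold change was -4.33 ± 0.12. The next gene on the chromosome among the members, ZAR1L (28670476 to 28679944), a relative of an oocyte RNA-binding gene, stood at 0.344, 0.598 and 0.557 CPM against 2.26, 3.27 and 3.06 CPM (-2.50 ± 0.30). FRY and ZAR1L are direct neighbours, and no other member starts between them.

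GAS6 (ENSBTAG00000019964, 86810337 to 86838896), the ligand of the receptor kinases TYRO3, AXL and MERTK, stood at 2.98, 3.21 and 3.34 CPM in knockout and 24.8, 25.5 and 26.8 CPM in wild type (-3.01 ± 0.11). Right beside it lies a gene that went the other way. RASA3 (86908880 to 86988568), a GTPase-activating protein that turns off Ras and Rap proteins, stood at 1.15, 1.36 and 1.90 CPM in knockout and 0, 0.107 and 0.109 CPM in wild type. It had 79 reads against 4. GAS6 and RASA3 thus lie next to each other among the members, each with a complete separation of genotypes and in opposite directions.

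CLYBL, a mitochondrial lyase that breaks down citramalyl-CoA, fell from 11.1 ± 1.01 to 1.80 ± 0.611 CPM (-2.61 ± 0.18). DHRS12, of the short-chain dehydrogenase family, fell from 4.95 ± 1.39 to 0.859 ± 0.326 CPM (-2.52 ± 0.29). LPAR6, a receptor for lysophosphatidic acid, was no outlier by this limit, at 1.70 below the chromosome median. It stood at 4.65, 7.61 and 4.96 CPM in knockout and 28.9, 24.7 and 22.3 CPM in wild type. LPAR6 lies inside the gene RB1 on the opposite strand, and RB1 did not pass the test (0.16 ± 0.12), with means of 9.28 CPM in knockout against 8.27 CPM in wild type. Since the strand setting of the counting is not stated, the reads of LPAR6 and RB1 cannot be told apart with confidence.

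High outliers of chromosome 12 were mostly genes almost unread in wild type. ENOX1 (ENSBTAG00000012434, 13339367 to 13682749), a cell surface NADH oxidase, stood at 10.6, 12.1 and 11.6 CPM in knockout and 0.677, 0.750 and 0.382 CPM in wild type (4.23 ± 0.20). RNF17, a ring finger and Tudor domain gene of germ cells, stood at 2.64, 2.28 and 3.23 CPM against 0.113, 0.536 and 0.164 CPM. Its fold change of 3.28 ± 0.39 became 4.23 without wild-type replicate 2. DCLK1, a microtubule-associated kinase, rose from 0.605 ± 0.169 to 2.48 ± 0.416 CPM (2.02 ± 0.30).

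The gap junction genes GJB2 and GJB6, which encode connexins 26 and 30, lie close together, between 36052303 and 36081883, and both rose. GJB2 stood at 418, 415 and 429 CPM in knockout and 156, 149 and 151 CPM in wild type (1.47 ± 0.04), which places it 1.90 above the chromosome median. GJB6 was far less abundant, at 1.66, 0.707 and 0.780 CPM against 0.226, 0.107 and 0.164 CPM (2.62 ± 0.52). GJB2 was the most abundant member of either chromosome that rose by more than 2-fold. An unnamed protein-coding locus overlaps it on the opposite strand. TNFSF13B, the B-cell survival cytokine BAFF, rose from 4.53 ± 0.722 to 9.20 ± 0.437 CPM (1.03 ± 0.14), and LHFPL6, a tetraspan membrane protein gene, rose from a mean of 8.96 to 15.3 CPM (0.77 ± 0.13).

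On chromosome 28 the low outliers were both more numerous and farther out. GRID1 (ENSBTAG00000019623, 40404330 to 41087444), which encodes a delta-type glutamate receptor subunit, had 6 reads in knockout and 473 in wild type. Its levels were 0.0574, 0 and 0.279 CPM against 10.1, 8.41 and 7.49 CPM. The log2 fold change of -6.19 ± 0.36 became -7.96 without knockout replicate 3, which holds most of the remaining reads. PALD1, which encodes the phosphatase-like protein paladin, had 4 reads against 179 (-5.33 ± 0.43), and RGR, an opsin-like receptor of the retina, had 12 against 241 (-4.26 ± 0.34). TMEM26, a transmembrane protein gene, had 16 reads against 218 (-3.71 ± 0.31), and an unnamed locus (ENSBTAG00000054635, 12807388 to 12830357) had 34 against 223.

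Several low outliers were well expressed in wild type. ADIRF, named adipogenesis regulatory factor, stood at 10.7, 9.95 and 7.91 CPM in knockout and 84.2, 73.9 and 104 CPM in wild type (-3.20 ± 0.16). VSIR, which encodes the immune checkpoint protein VISTA, stood at 6.26, 6.42 and 6.63 CPM against 57.6, 58.3 and 49.4 CPM (-3.10 ± 0.09). LYST, the lysosomal trafficking regulator mutated in Chediak-Higashi syndrome, stood at 2.70, 3.32 and 2.84 CPM against 24.8, 27.6 and 30.8 CPM (-3.23 ± 0.12). In each of these genes the lowest wild-type library stood several-fold above the highest knockout library. MYOZ1, which encodes a calcineurin-binding protein of muscle sarcomeres, fell from 6.96 ± 0.359 to 1.08 ± 0.163 CPM (-2.68 ± 0.19).

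A group of 5 low outliers lay within a short stretch of chromosome 28, from 25803071 to 27920827, among 16 members that start there. They were TSPAN15, a tetraspanin partner of the protease ADAM10, the histone variant gene H2AFY2, PALD1, the cadherin gene CDH23 and VSIR. TSPAN15 had 5 reads in knockout and 109 in wild type (-4.32 ± 0.48, and -4.98 without knockout replicate 2). H2AFY2, which encodes macroH2A2, fell from 15.1 ± 2.99 to 2.31 ± 0.137 CPM (-2.70 ± 0.17). CDH23 had 4 reads against 60 (-3.76 ± 0.52). In the same stretch the procollagen protease gene ADAMTS14 rose, from 47.3 ± 4.64 to 102 ± 5.41 CPM (1.11 ± 0.07), and AIFM2, which overlaps H2AFY2 on the other strand, did not pass the test (0.02 ± 0.09). The stretch therefore held members in both directions. VSIR and CDH23 overlap each other on opposite strands. With the strand setting not stated, their reads cannot be told apart with confidence, so these genes may not be separate outliers.

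High outliers of chromosome 28 were few, and all but RASSF4 were rare in wild type. MAT1A (ENSBTAG00000005963, 35665736 to 35682716), the liver form of the enzyme that makes S-adenosylmethionine, stood at 2.35, 2.77 and 2.90 CPM in knockout and 0.0564, 0 and 0.109 CPM in wild type. Its 144 reads against 3 gave 48.8 times the level (exact 95% interval for counting error 16.4 to 239.5). The edgeR fold change of 5.44 ± 0.48 became 6.29 without wild-type replicate 3. An unnamed locus (ENSBTAG00000046421, 35609626 to 35620494) beside MAT1A had 92 reads in knockout and none in wild type, where it was at 0 in each library. With the wild-type group set to the floor of 3 reads, its ratio was 31.2, a value that rests on this floor and leaves out counting error. MAT1A and this locus are neighbouring members, both at or near 0 in wild type. VSTM4, an immunoglobulin-domain membrane protein gene, had 93 reads against 5 (4.15 ± 0.51, and 4.80 without wild-type replicate 2). RASSF4, a Ras-association domain gene, rose from 2.53 ± 0.333 to 8.24 ± 1.13 CPM (1.71 ± 0.17).

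Further members rose on chromosome 28 while staying within 2 of its median. ERO1B, an oxidase that forms disulfide bonds in the endoplasmic reticulum, rose from 2.76 ± 0.307 to 6.11 ± 0.638 CPM (1.14 ± 0.17), and the zinc-finger gene ZNF239 from 1.42 ± 0.538 to 3.67 ± 0.532 CPM (1.37 ± 0.25). CTNNA3, an alpha-catenin of cardiac junctions, had 79 reads against 42 (0.93 ± 0.32, edgeR adjusted p = 0.0145). CTNNA3 lost its call when wild-type replicate 2 was left out (0.68, edgeR adjusted p = 0.0845). It also lost it when knockout replicate 3 was left out (0.80, edgeR adjusted p = 0.0688) and by DESeq2 (0.95, adjusted p = 0.0675).

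Part of the members were also sorted by role into 6 lists of genes known to map to these chromosomes. Many members are in none of these lists. The median of each list was below 0. Over all genes tested the median was -0.01, with 37.6% lower and 37.1% higher. Over the members of both chromosomes together the median was -0.47, with 63.4% called lower and 14.4% higher. A list median below 0 thus restates how the chromosomes were chosen and is no result about a role.

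Of 27 members in cell cycle and genome maintenance, 14 fell, 6 rose and 7 did not pass the test, with a median of -0.30. CDK1, the kinase that drives entry into mitosis, rose on chromosome 28 from 28.1 ± 3.84 to 46.7 ± 0.939 CPM (0.73 ± 0.08), with 25.3, 26.5 and 32.5 CPM in wild type and 47.3, 47.2 and 45.7 CPM in knockout. RNASEH2B, a subunit of ribonuclease H2, rose on chromosome 12 (0.52 ± 0.07), as did CKAP2, a spindle protein (0.48 ± 0.05), and MZT1, a part of the gamma-tubulin complex (0.41 ± 0.08). The members that fell included the ADP-ribose polymerase gene PARP4 (-1.40 ± 0.08), CAB39L, a cofactor of the kinase LKB1 (-1.40 ± 0.09), the DNA ligase gene LIG4 (-0.86 ± 0.10) and the excision repair genes ERCC5 and ERCC6 (-0.78 and -0.75). CDK8, a kinase of the Mediator complex, was near its chromosome's level (-0.34 ± 0.09). Genes of mitosis and of DNA repair on these chromosomes thus did not all go the same way.

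In the list of transcription factors and chromatin, 32 of 41 rows fell and 3 rose, with a median of -0.69. This list was drawn broadly and also holds genes of other roles, such as HNRNPF, BMS1 and POLR1D. A gene named from it is thus not always a transcription factor or chromatin protein. The symbol TSC22D1 is counted under both ENSBTAG00000047739 and ENSBTAG00000046664, each called lower. ARID5B, a DNA-binding partner of a histone demethylase, fell from 59.6 to 19.4 CPM (-1.62 ± 0.07) and NCOA4, which carries ferritin to the lysosome and also binds nuclear receptors, from 148 to 56.7 CPM (-1.38 ± 0.05). The histone-modifying genes KAT6B (-1.33 ± 0.09) and JMJD1C (-1.37 ± 0.07) fell too, as did ARID4B (-1.35 ± 0.07), ZMIZ1 (-1.42 ± 0.09) and ZNF503 (-1.73 ± 0.16). These 7 genes are all on chromosome 28. On chromosome 12, LMO7 fell from 324 to 121 CPM (-1.42 ± 0.05), the ETS factor gene ELF1 by 0.96 and FOXO1 by 0.57 on the log2 scale, and ARGLU1 was at the chromosome's level (-0.46 ± 0.06). HMGB1, an abundant DNA-bending protein, did not pass the test, with means of 348 CPM in knockout against 359 CPM in wild type. BMS1, a ribosome assembly factor, rose (0.58 ± 0.08). The RNA helicase gene DDX21 was called at the limit (0.12 ± 0.05, edgeR adjusted p = 0.0498) and lost its call in 7 of 14 alternatives. POLR1D, a subunit of RNA polymerases I and III, rose by 0.26 ± 0.11, and its call was lost under several alternatives. By edgeR it was 0.14 (adjusted p = 0.207) when knockout replicate 1 was left out, and 0.26 (adjusted p = 0.0806) and 0.18 (adjusted p = 0.131) when wild-type replicates 1 and 2 were. Scaled by library size alone it was 0.21 (edgeR adjusted p = 0.0802).

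Matrix, adhesion and cytoskeleton genes had the widest range of the 6 lists. Of 21 members 13 fell and 7 rose, with a median of -0.85 and ratios from -4.42 to 2.66. On chromosome 12 alone the median of its 6 members was 0.02. Besides the outliers above, DLG5, a polarity scaffold, fell from 291 to 104 CPM (-1.49 ± 0.06), the tetraspanin gene TSPAN14 from 31.6 to 9.30 CPM (-1.77 ± 0.10) and ANXA7 from 102 to 42.9 CPM (-1.25 ± 0.06). VCL, which encodes vinculin of focal adhesions, was at the level of chromosome 28, with 141, 141 and 140 CPM in knockout and 200, 209 and 193 CPM in wild type (-0.51 ± 0.05). P4HA1, a collagen prolyl hydroxylase (0.27 ± 0.06), and the netrin receptor gene UNC5B (0.37 ± 0.06) rose. POSTN, which encodes periostin, did not pass the test (-0.16 ± 0.21). A further 18 genes of this list on the 2 chromosomes had under 60 reads.

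Among 19 members in the list of ligands, receptors and signalling, 11 fell and 4 rose, with a median of -0.26. DOCK9, an exchange factor for CDC42, fell from 191 to 63.2 CPM (-1.60 ± 0.05), the insulin receptor substrate gene IRS2 from 8.48 to 2.80 CPM (-1.60 ± 0.16) and RHOBTB1 from 16.0 to 5.25 CPM (-1.61 ± 0.13). ARHGEF7 rose (0.60 ± 0.07), as did SIPA1L2 (0.48 ± 0.07). The stress kinase gene MAPK8 (-0.10 ± 0.10), the ERK pathway inhibitor gene SPRY2 (-0.04 ± 0.06) and EGLN1, an oxygen-sensing prolyl hydroxylase (0.02 ± 0.07), did not pass the test. In this list 20 genes had under 60 reads.

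Of 46 metabolic and mitochondrial genes 30 fell and 7 rose, with a median of -0.36. Glutamate dehydrogenase (GLUD1) fell from 265 to 122 CPM (-1.12 ± 0.05), the mitochondrial outer membrane channel gene VDAC2 from 318 to 149 CPM (-1.09 ± 0.05), and hexokinase (HK1) from 266 to 163 CPM (-0.71 ± 0.05). The ornithine carrier gene SLC25A15 (-1.22 ± 0.10) and PCCA, a subunit of propionyl-CoA carboxylase (-1.18 ± 0.07), had the largest falls of the list on chromosome 12. GHITM, an inner membrane protein gene, was at the level of chromosome 28 (-0.56 ± 0.05). The import receptor gene TOMM20, with means of 142 CPM in knockout against 146 CPM in wild type, did not pass the test, while TIMM23, a channel of the inner membrane, rose (0.26 ± 0.06).

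Of 35 genes of protein turnover and trafficking 30 fell, 3 rose and 2 were not called, with a median of -0.49. LAMP1, a major lysosomal membrane protein, had 332, 331 and 322 CPM in knockout and 456, 442 and 430 CPM in wild type (-0.43 ± 0.04), the level of chromosome 12. The nuclear import receptor gene IPO5 (-0.45 ± 0.04) and TM9SF2 (-0.43 ± 0.04) were at nearly the same value. The ubiquitin ligase gene MARCH8 fell from 52.5 to 19.4 CPM (-1.44 ± 0.07) and the deubiquitinase gene UCHL3 from 87.6 to 33.7 CPM (-1.38 ± 0.10). All 3 that rose are heat-shock or J-domain chaperone genes: DNAJC9 (0.59 ± 0.09), DNAJC15 (0.57 ± 0.09) and HSPH1 (0.39 ± 0.06). Other J-domain genes of the list, DNAJB12 (-0.69) and DNAJC3 (-0.20), were called lower, so such genes did not all go the same way. The proteasome maturation gene POMP did not pass the test (-0.09 ± 0.05).

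**Figure D5:**
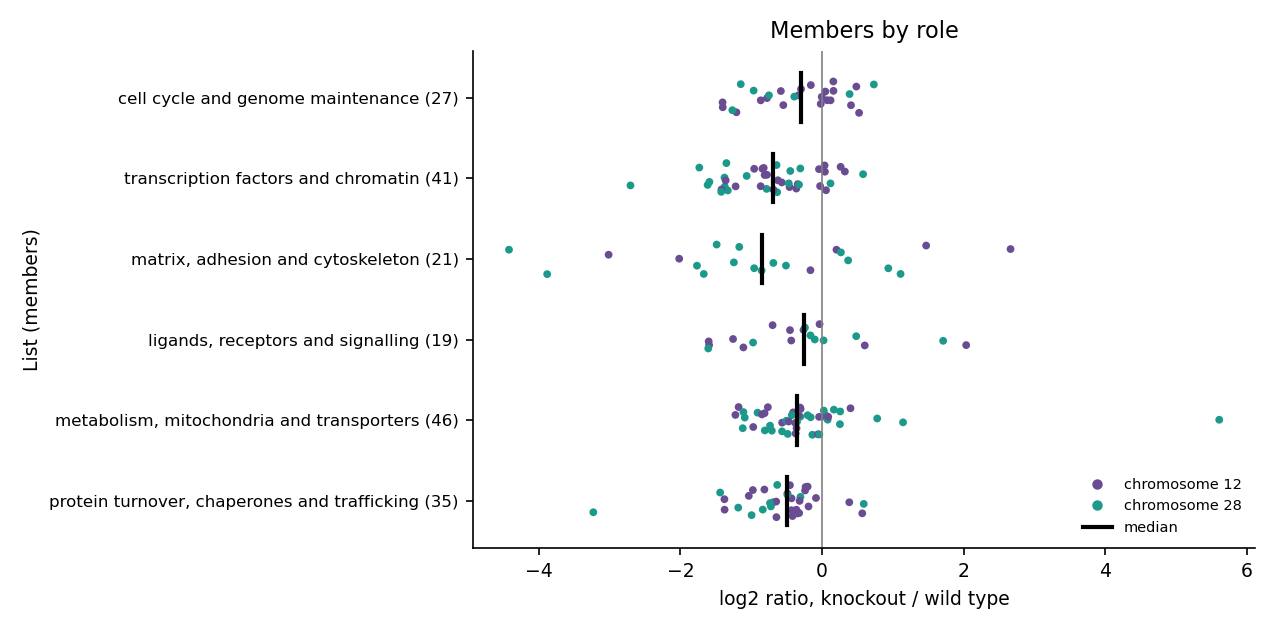
Log2 ratio of knockout over wild type for the members of 6 lists, with 1 point for each member (chromosome 12 purple, chromosome 28 green) and a bar at each median. All 6 medians are below 0, from -0.85 for matrix and adhesion genes to -0.26 for ligands, receptors and signalling.

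The authors' deposited table lists 144 of the 208 members of chromosome 12, 120 with a lower and 24 with a higher level in knockout. Of the 162 members of chromosome 28 it lists 127, 104 lower and 23 higher. The share of all genes that it lists lower or higher is not given here. Because the same contrast picked the chromosomes, these counts only describe them. The median distance between the log2 fold changes of the authors' deposited table and the edgeR values was 0.0135 on chromosome 12 and on chromosome 28. The largest distance was 0.139 on chromosome 12 and 0.535 on chromosome 28. At the limit of 60 reads, the members just inside on chromosome 12 were an unnamed locus (60 reads, ratio 0.51) and GJB6 (65 reads, 2.66), and those just outside were SLC15A1 (58 reads, -0.69) and MTUS2 (54 reads, -2.72). On chromosome 28 they were CDH23 (64 reads, -3.88) and an unnamed locus (78 reads, 0.70) inside, and RET (59 reads, -0.02) and FAM13C (51 reads, -3.53) outside.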

How the data were processed

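RNA of 6 libraries was analysed from the raw counts per gene that the authors deposited. HISAT2 2.0.5 and featureCounts 1.5.0-p3 are named, without roles or settings, per the submitters' processing notes. Genome build, annotation and strand setting were not given in the sources used here. Both the log2 fold changes and adjusted p-values of the authors' deposited table cover only genes past their threshold. Symbols, biotypes, positions and the other row properties, gene length in bases among them, come from the deposited count table per the file headers.

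All rows were fitted with edgeR 4.0.16 (R 4.3.3): TMM scaling, filterByExpr (minimum count 10, minimum total 15), robust quasi-likelihood test, with Benjamini-Hochberg adjusted p under 0.05 as the call. Standard errors were taken as log2 fold change divided by the root of F. A member's log2 ratio compares scaled reads summed over the libraries of each genotype, with a group under 3 reads set to 3. The ratio of a group at 0 thus rests on this floor. Per-library ratios used a pseudocount of 0.5 reads. The 95% interval of a ratio of reads is exact (Clopper-Pearson) and covers counting error only. The method was tested on simulated data. Members and lists were chosen with earlier results of these data known. Named were, per chromosome, the 6 members farthest above and below the median with at least 1 CPM, the 3 most abundant, per list up to 2 called in each direction and the 1 nearest its chromosome median, and the outliers. Other members in the text were chosen after their values were seen. A member named by this rule is not reported here. Replicate numbers are shared by the genotypes in the labels. Same-numbered libraries deviated together with correlations of -0.05, 0.08 and -0.02, so the numbers were not taken to pair them. DESeq2 1.42.0 and limma 3.58.1 (voom) served as alternatives.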

Additional observations from a re-analysis of the deposited data

How the results depend on the processing

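Under every scaling tried both medians stayed below 0. With library size only they were -0.48 (chromosome 12) and -0.62 (chromosome 28), and the median of all genes moved by 0.05 in the same direction. Leaving out 1 library gave -0.43 to -0.41 and -0.61 to -0.53, and rows of other biotypes gave -0.14 on chromosome 12. Calls of lower and higher members stayed within 1.5 times of the main counts under all 14 alternatives. Of 287 called members 258 kept their call in every alternative that tested them and 29 lost it in at least 1, with 0 reversed. The filter of 1 CPM in 3 libraries left GJB6, CDH23, SPOCK2 and CDHR1 untested, so these had 13 alternatives. With the replicate block, 124 and 110 members were called lower and 24 and 27 higher, on chromosomes 12 and 28. Leaving out 1 library gave 3 to 5 outliers below on chromosome 12.

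Outlier counts moved with their definition. With at least 600 reads there were 1 above and 3 below on chromosome 12, and 0 above and 4 below on chromosome 28, since fewer members entered. A distance of 1 gave 15 and 12, and 17 and 22. A distance of 3 gave 1 below on chromosome 12 and 6 below on chromosome 28. Running medians over 11 members were below 0 at 194 of 198 positions (97.98%) on chromosome 12, against 100% over 21. Depth limits the rare outliers: those with under 10 reads in a genotype have values that 1 library can move.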
